A study of Arabidopsis thaliana with 4 samples.

Results

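The 81 genes described here were near-silent in cmt3 seedlings of Arabidopsis thaliana and clearly above that level in seedlings labelled tcx5/6;cmt3. They were chosen from 32548 genes in the expression table by their values: under 30 in both cmt3 libraries, 40 or more in both tcx5/6;cmt3 libraries, and a lower tcx5/6;cmt3 value at least 4 times the higher cmt3 value. In all, 88 genes met these limits, and 7 of them (TIL2, BSU1, VIM4, SPO11-2, NRAMP5, IMPA-5 and HDA18) were set aside by the selection. Values are the authors' normalized signal per gene and library, not divided by gene length.

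The mRNA came from 1 g of 2-week-old seedlings per library, raised on MS plates at 22 °C with 16 h of light and 8 h of dark. The control genotype is labelled cmt3-/- and the other carries the tcx5 and tcx6 labels as well, so every library used here is labelled as lacking CMT3, the chromomethylase that maintains CHG methylation. No wild-type library was used here. Each genotype has 2 libraries. Whether these came from separately grown plants is not labelled, so a p-value below reflects library-to-library spread that could be technical. The sources used here do not give the alleles or the strain.

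The mutated genes were read first as a check of the labels. TCX5 was at 729.8 and 676 in the cmt3 libraries and at 251 and 249 in the others, a log2 difference of -1.49. TCX6 was at 198 and 179.8 in cmt3, against 919 and 1034 in the others, a log2 difference of 2.36, which goes against its label. CMT3 itself was at 822 and 662 in cmt3, against 1289 and 1343 in the others, a log2 difference of 0.83. Its signal thus does not show the loss that every library is labelled with. The second genotype is therefore called the labelled triple mutant, each direction below rests on that label, and the members are described by their values, not as genes switched on by loss of TCX5 and TCX6. A value per gene cannot tell which stretch of it was transcribed, and the part of TCX6 in the members' levels was not tested. Library totals of the signal ran from 38264463 to 41106102, and the reads behind them are unknown.

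TCX5 and TCX6 are proteins with cysteine-rich CXC domains that belong to the DNA-binding part of the DREAM complex. In it they join E2F and DP factors, the retinoblastoma protein and MYB3R factors. The complex is known for repressing genes of the cell cycle outside their proper phase. E2F factors read short GC-rich words near gene starts, and CXC proteins read an AT-rich word called the cell cycle homology region. Meiosis takes place in the anthers and ovules of flowers and not in leaves or roots. Genes named for it were not all silent in the cmt3 seedlings: DMC1 was at 461 and 409.9 there.

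Only a small share of the silent genes behaved this way. Both cmt3 values were under 30 for 12789 genes. Of these, 7158 were at 0 in all 4 libraries used here and 5631 were above 0 in at least 1 of them. Of the 12789 genes, 0.688% met the limits. With the genotypes exchanged the same limits picked 34 genes. In limma on log2(value + 1), 81 of 81 members were tested and called higher (adjusted p under 0.05), beside 6.15% of all 23666 tested genes called higher and 2.32% called lower. Both labelled triple mutant libraries were above both cmt3 libraries for 24.4% of tested genes. Because the same contrast chose the members, their count is a description and nothing is read from it. Without either labelled triple mutant library limma called 0 genes in either direction, with 2407 and 2490 genes at an unadjusted p under 0.05, and without a filter on low values it called 2 of the 81 members.

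**Figure D1:**
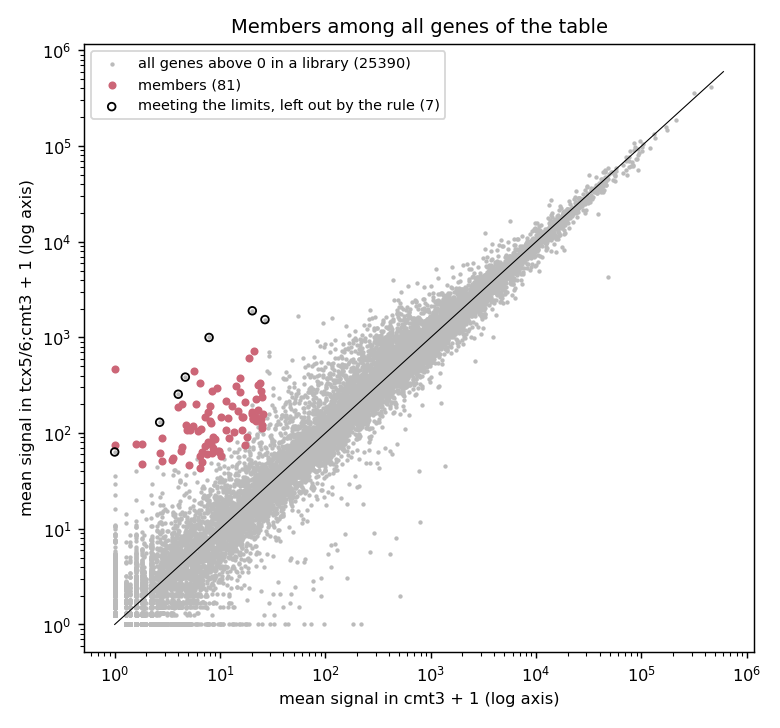
Mean signal plus 1 in the cmt3 libraries (x axis) and in the labelled triple mutant libraries (y axis), both on log axes, for the 25390 genes above 0 in a library (grey), the 81 members (red) and the 7 genes left out (open black circles). The line marks equal signal, and the members sit above it at the low end of the cmt3 axis.

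The members lay between 0 and 28.9 in either cmt3 library, with medians of 7.58 and 9.13. They ranged from 41.3 to 746 in labelled triple mutant replicate 1 and from 40.4 to 694 in replicate 2, with medians of 122 and 121. For comparison, the medians over all tested genes were 493 and 512 in cmt3, against 532 and 533 in the labelled triple mutant, above the member medians in both genotypes. The log2 difference had a median of 3.61 over the members, from 2.15 to 8.88 (the highest belongs to a gene at 0 in cmt3 and depends on the pseudocount), beside a median of -0.02 over all tested genes. It was 5 or more for 14 members, 4 or more for 35 and under 3 for 21.

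Within the members the labelled triple mutant replicates lay close together, which the selection favours through its limits on the lower value. The higher replicate was a median of 1.18 times the lower, and 3 members differed 1.5-fold or more. AT3G28510, annotated as a P-loop nucleoside triphosphate hydrolase, was the 1 member that differed 2-fold or more, at 113 and 40.4. The cmt3 values, held under 30 by the selection, had a median ratio of 1.55 between replicates where both were above 0. The highest ratio was 21.2, for TIM44-1. These ratios describe the members only and were not set beside those of other genes. Several members share exactly the same low pair of cmt3 values: AT5G01120, AT5G00825 and AT2G37000 were each listed at 2.78 and 8.14. TERT and ACS8 likewise were both listed at 20 and 22.2. Pairs recur in the labelled triple mutant and outside the members too. CYCA2;1 and SDS, a meiosis gene that is no member, were both listed at 239.8 and 236 there. The source of the recurring pairs is not known.

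**Figure D2:**
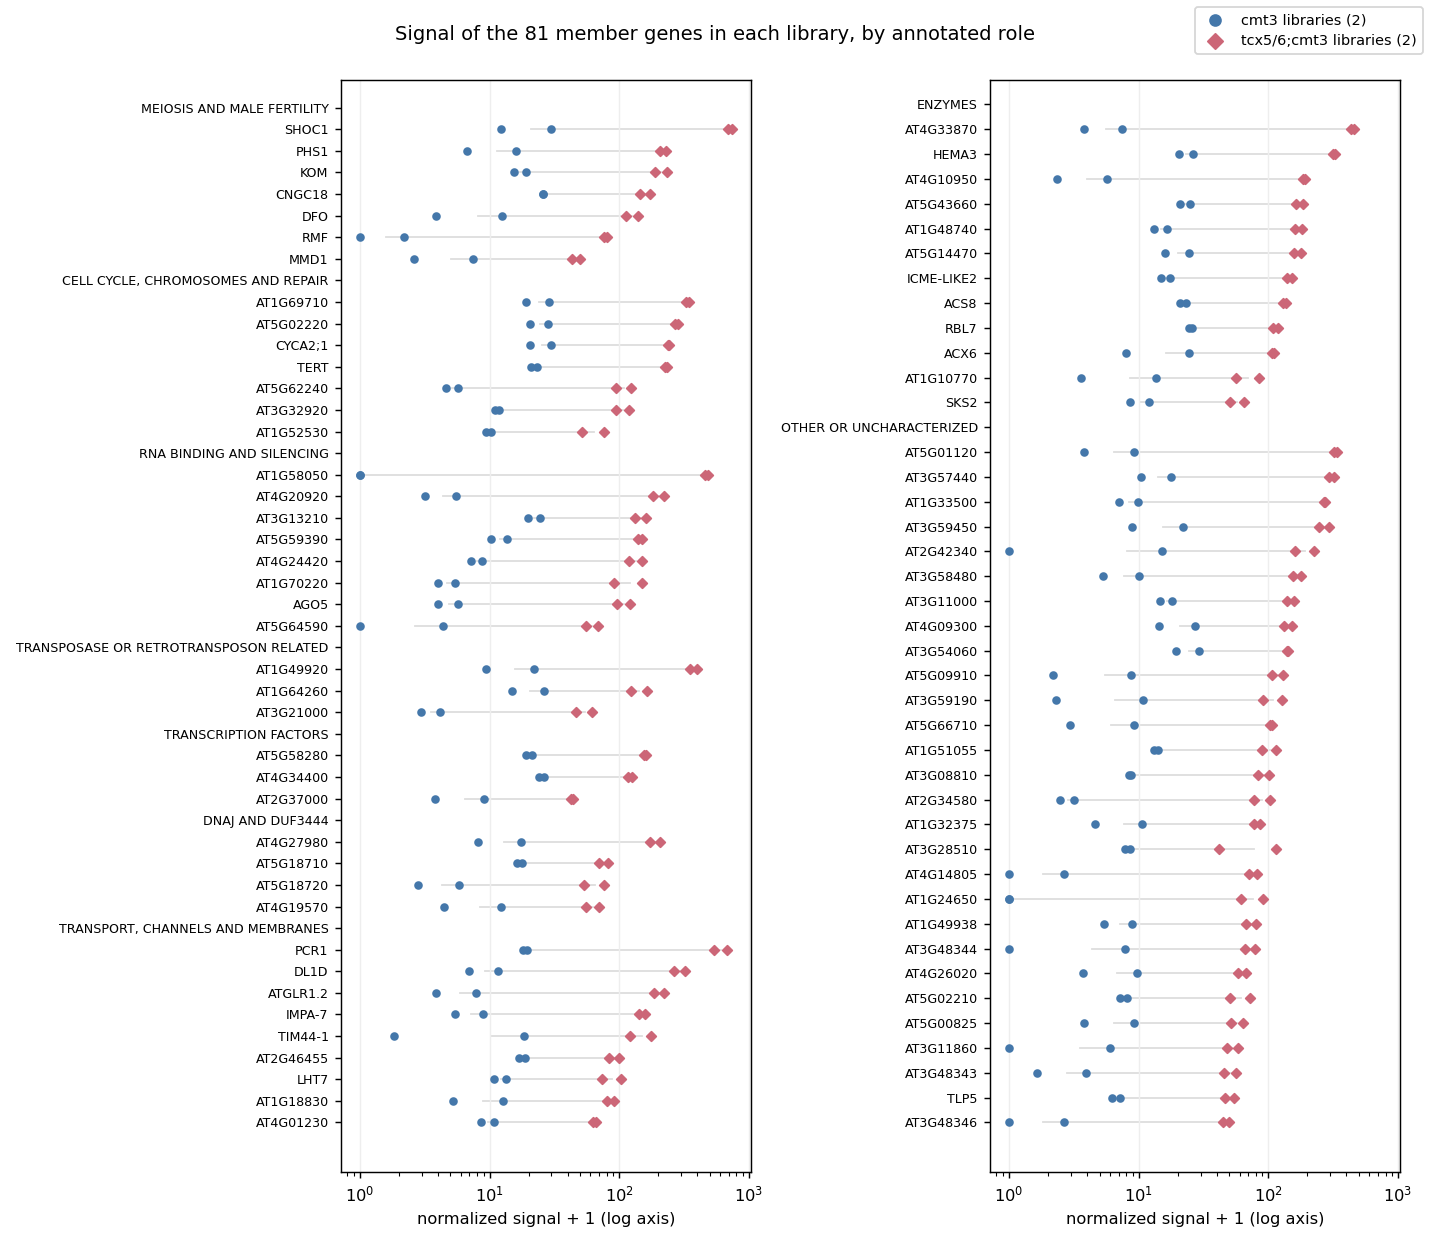
Normalized signal plus 1 on a log axis for each of the 81 members, in the 2 cmt3 libraries (blue circles) and the 2 labelled triple mutant libraries (red diamonds), with a grey line between the genotype means and members grouped by annotated role. No cmt3 value exceeds 28.9 and no labelled triple mutant value is under 40.4.

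The members closest to each limit show how little separates them from genes left outside. At the cmt3 limit, SHOC1 and CYCA2;1 each had a value of 28.9, while AtSPO22, a meiotic crossover gene, had cmt3 values of 23.6 and 30.2, against 466 and 415 in the labelled triple mutant. AT3G62430 also lay just outside, at 30.1 and 17 in cmt3. At the lower limit for the labelled triple mutant, AT3G28510 (40.4) and AT2G37000 (41.3) were inside, and AT3G46614 (39.7) and AT3G05110 (38.8) were outside. At the ratio limit, AT5G18710 (4.1) and RBL7 (4.37) were inside, and WAK3 (3.95) and HAF2 (3.91) were outside.

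By their annotated products, 79 members code for proteins and 2 are long noncoding RNAs. The products of 7 members are uncharacterized or hypothetical. The role groups below were formed after the values were seen, so the groups order the description and are not evidence of a theme. By rule no member's genotypes overlap: each cmt3 value named below is lower than each labelled triple mutant value of the same gene. Log2 differences are given with their standard error.

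The meiosis and male fertility group has 7 members, with genotype means of 0.594 to 24.7 in cmt3, against 45.5 to 720.2 in the labelled triple mutant. SHOC1 (AT5G52290), an XPF-related protein needed for meiotic crossovers, had the highest mean of all 81 members. It was at 28.9 and 11.2 in cmt3, against 746 and 694 in the labelled triple mutant, a log2 difference of 5.24 ± 0.43. SHOC1 overlaps AT5G52280 on the opposite strand. PHS1, which takes part in the pairing of homologous chromosomes, was at 5.67 and 15 in cmt3, against 205 and 228 in the labelled triple mutant. DFO, required for the double-strand breaks that start recombination, was at 11.4 and 2.87 in cmt3, against 112 and 139. MMD1, a PHD-finger protein of male meiocytes, was the lowest of the meiosis genes, at 6.5 and 1.62 in cmt3, against 48.5 and 42.5 in the labelled triple mutant.

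The other members of that group are known from pollen formation or function. KOM, a rhomboid-type protease named for a pollen wall defect, was at 14.5 and 18.1 in cmt3, against 188 and 233 in the labelled triple mutant. CNGC18, a cation channel of the pollen tube, was at 24.7 in both cmt3 libraries and at 173 and 144 in the others, one of the smaller log2 differences (2.63 ± 0.30). RMF, annotated as reduced male fertility, was close to silent, at 0 and 1.19 in cmt3, and reached 74.8 and 78.9.

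Of 7 members with roles in the cell cycle, chromosomes and repair, TERT is the best known. TERT (AT5G16850) encodes the protein subunit of telomerase, the enzyme that extends chromosome ends. It was at 20 and 22.2 in cmt3, against 233 and 224 in the labelled triple mutant, a log2 difference of 3.38 ± 0.28. TERT overlaps BPA1 on the opposite strand. CYCA2;1, an A-type cyclin, was at 19.6 and 28.9 in cmt3, against 239.8 and 236 in the labelled triple mutant. AT5G02220, annotated as a cyclin-dependent kinase inhibitor, was at 19.7 and 27.1 in cmt3, against 282 and 266. AT1G69710, a protein with RCC1 repeats, was at 18 and 27.9 in cmt3, against 342 and 328. The group thus holds a cyclin and an annotated inhibitor of the kinases that cyclins activate. AT5G62240 (a cell-cycle-regulated microtubule protein), AT3G32920 (a RecA-like P-loop protein) and AT1G52530 (a Hus1-like checkpoint protein) complete it, and the lowest labelled triple mutant value in the group was 50.4.

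RNA binding and silencing genes number 8. AT1G58050, an RNA helicase gene on chromosome 1, was at 0 in both cmt3 libraries, against 479 and 460.1 in the labelled triple mutant, so no fold is given. AT4G20920, a double-stranded RNA-binding protein whose coding sequence is closest to that of the small RNA methyltransferase HEN1, was at 2.16 and 4.55 in cmt3, against 222 and 181 in the labelled triple mutant. AGO5, an Argonaute protein known from reproductive tissue, was at 4.73 and 2.99 in cmt3, against 120.4 and 95.3, a log2 difference of 4.50 ± 0.45. An XH/XS domain protein, an Lsm protein, an RRM protein, a crooked-neck protein and an NYN domain protein complete this group, whose lowest labelled triple mutant value was 54.2.

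Of 3 members related to transposases or retrotransposons, the highest was AT1G49920, a MuDR family transposase. AT1G49920 was at 20.9 and 8.4 in cmt3, against 353 and 399 in the labelled triple mutant. AT1G64260, the member closest to it in coding sequence, was at 25.4 and 13.9 in cmt3, against 122 and 162. AT3G21000, a Gag-Pol-related gene, was at 3.15 and 1.98 in cmt3, against 45.7 and 61.1, and it overlaps a gene on the opposite strand. Transcription factors number 3 (AT5G58280 and AT4G34400 of the B3 type and AT2G37000 of the TCP family), with labelled triple mutant means from 42.1 to 158.

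Of the genes whose annotation names DUF3444, a domain often found with a DnaJ chaperone domain, 3 are members. AT4G27980 was at 7.21 and 16.6 in cmt3, against 173 and 205 in the labelled triple mutant. AT5G18720 was at 4.82 and 1.79 in cmt3, against 52.4 and 75.3. AT5G18710, its neighbour, was at 15.4 and 16.8 in cmt3, against 68.8 and 81, the smallest log2 difference of all members (2.15 ± 0.36). All 7 genes annotated with DUF3444 were tested and 5 were called higher. Setting the 3 members aside, 2 of the other 4 were called higher, beside 6.15% of all tested genes. AT5G18730, at 83.7% identity to AT5G18720, is annotated without that word and was not called (limma adjusted p = 0.106). The counts thus cover annotated genes and may not cover the whole family. AT4G19570, a DnaJ protein whose annotation does not name DUF3444, was at 11.3 and 3.46 in cmt3, against 54.2 and 68.6. Of 120 tested genes annotated as DnaJ, 7 were called higher, 3 of them members, and 1 lower. Without the members 4 of 117 were called higher, and the share over all tested genes was 6.15%.

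Transport, channels and membranes account for 9 members. PCR1, a small membrane protein named for cadmium resistance, was at 18.6 and 17 in cmt3, against 675 and 538 in the labelled triple mutant, the highest mean after SHOC1. DL1D, a dynamin-like GTPase, was at 5.89 and 10.7 in cmt3, against 265 and 321. ATGLR1.2, a glutamate receptor-like channel, was at 2.85 and 6.9 in cmt3, against 184 and 219. None of these exceeded 18.6 in a cmt3 library. IMPA-7, an importin alpha that carries cargo to the nucleus, was at 7.94 and 4.41 in cmt3, against 140.4 and 156, and it overlaps SYP43 on the opposite strand. TIM44-1, of the mitochondrial import motor, had unequal cmt3 values of 0.83 and 17.6 and was then at 175 and 121. It overlaps a gene on its own strand. LHT7, an amino acid transporter of the LHT family, was at 12.5 and 9.89 in cmt3, against 102 and 72.5.

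Of 12 members grouped with the enzymes, the highest was AT4G33870, a peroxidase family gene. The group also holds AT1G10770, annotated as an inhibitor of invertase or pectin methylesterase. AT4G33870 was at 6.4 and 2.8 in cmt3, against 434 and 455 in the labelled triple mutant, a log2 difference of 6.39 ± 0.42. HEMA3, a glutamyl-tRNA reductase of tetrapyrrole synthesis, was at 25 and 19.3 in cmt3, against 327 and 315. AT4G10950, a SGNH hydrolase, was at 1.35 and 4.67 in cmt3, against 184 and 189. The remaining members of the group were lower. ACS8, which makes the precursor of ethylene, was at 20 and 22.2 in cmt3, against 128 and 136 in the labelled triple mutant. ICME-LIKE2, an alpha/beta hydrolase, was at 13.8 and 16.4 in cmt3, against 152 and 138. RBL7, a rhomboid-like gene, was at 24.8 and 23.5 in cmt3, against 117 and 108, one of the smallest log2 differences (2.18 ± 0.31). ACX6 and SKS2 have close relatives described below. ACX6, an acyl-CoA oxidase, was at 6.91 and 23.3 in cmt3, against 110.2 and 105, and SKS2, a relative of the cell wall protein SKU5, was at 7.51 and 11.1 in cmt3, against 63.5 and 50.

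The remaining 28 members are other or uncharacterized, and they hold some of the largest differences. AT5G01120, a DUF674 protein, was at 2.78 and 8.14 in cmt3, against 322 and 338 in the labelled triple mutant (log2 difference 5.81 ± 0.49). AT1G24650, a leucine-rich repeat kinase, was at 0 in both cmt3 libraries and at 89.1 and 60.1 in the others, so no fold is given. AT4G14805, a lipid-transfer-like protein, was at 1.66 and 0 in cmt3, against 80.6 and 69.9. Others in the group were among the 15 highest members in the labelled triple mutant. AT1G33500, annotated as a tropomyosin, was at 6 and 8.9 in cmt3, against 273 and 269.6, and AT3G57440 was at 16.7 and 9.42 in cmt3, against 291 and 321. AT3G59450, an EF-hand protein, was at 20.9 and 7.81 in cmt3, against 244 and 291. AT2G42340 had unequal cmt3 values of 0 and 14.2, was at 159.7 and 224 in the labelled triple mutant, and has the widest error of all members (5.61 ± 1.18). TLP5, a tubby-like protein, lies near the low end of the group, at 6.23 and 5.22 in cmt3, against 52.9 and 45.

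Dividing the labelled triple mutant mean by exonic length changed the order. On the signal per kb of exon, PCR1 was first at 647, AT3G59450 next at 599 and AT5G02220 after it at 372. SHOC1, first by undivided signal, was at rank 16. AT1G58050 moved from rank 3 to rank 28, and MMD1 was last.

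The members were spread over all chromosomes, with 21, 8, 18, 14 and 20 on chromosomes 1 to 5. Protein-coding members had a median coding length of 1215 bases and 5 exons, beside 1125 bases and 4 exons over tested protein-coding genes. Genes called higher outside the members had medians of 1410.0 bases and 6 exons. Of the 81 members, 24 overlap another annotated gene, among them SHOC1, TERT, KOM, DFO, IMPA-7, TIM44-1, ICME-LIKE2, RBL7, LHT7, SKS2 and AT4G14805. The sources used here do not state whether strand was used in counting, so reads of overlapping genes cannot be told apart.

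Some members, 8 in all, have another member as direct neighbour. Among them, on chromosome 5, the long noncoding RNA AT5G00825 and AT5G02220 lie between 440987 and 442187 (TAIR10.1). AT5G00825 was at 2.78 and 8.14 in cmt3, against 50.1 and 63 in the labelled triple mutant. AT3G48343, AT3G48344 and AT3G48346, all uncharacterized, lie on chromosome 3 between 17899785 and 17903751. AT3G48344 was the highest of these, at 0 and 6.8 in cmt3, against 77.8 and 65.1. AT3G48343 was at 0.636 and 2.93 in cmt3, against 44.8 and 55.6, and AT3G48346 was at 1.66 and 0, against 49 and 43.9. The DUF3444 genes AT5G18710 and AT5G18720 are direct neighbours too, on chromosome 5 from 6241134 to 6246325.

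Genes next to members, which the selection did not use, were read in the same fit. Of 151 distinct neighbours that are not members, 106 were tested, 8 were called higher (7.55%, beside 6.15% of all tested genes) and 2 lower, with a median log2 difference of 0.11. The share lies near that of all tested genes. AtSPO22 is 682 bases from ATGLR1.2 on the same strand, with a log2 difference of 3.99 ± 0.25 (limma adjusted p = 0.00058). BUB3.2, of the spindle checkpoint, lies 44 bases from AT1G49920 and points towards it. It rose from 89 and 109 to 844 and 843, a log2 difference of 3.08 ± 0.17 (limma adjusted p = 0.000423). HO3, a heme oxygenase, lies 66 bases past AT1G69710 on the same strand and rose from 24.8 and 24.1 to 92 and 101 (log2 difference 1.93 ± 0.32, limma adjusted p = 0.0147). The others called higher were AT3G59200 (log2 difference 2.45), AT1G49940 (1.78, overlapping the long noncoding RNA AT1G49938 on the same strand), AT1G10780 (1.34), AT3G11850 (0.75) and PBD2 (0.46, overlapping AT4G14805). These calls ended without either labelled triple mutant library, and how far reads of a gene run into a close neighbour was not tested.

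The members were then set beside their closest relatives. By BLASTN of coding sequences (E-value 1e-10 or less, at least 50% of the member's coding sequence covered), 46 members had a closest other gene, at 66.3% to 93.4% identity with a median of 77.9%. For 3 of them it was another member. Of 42 distinct relatives that are not members, 33 were tested, 4 were called higher (12.1%, beside 6.15% of all tested genes) and 0 lower, with a median log2 difference of 0.27. At an unadjusted p under 0.05 limma had 12 of the 33 higher and 2 lower. Of the 42, 28 had a cmt3 mean of 30 or more and 23 had 100 or more, values from the same seedlings in which the members were under 30.

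AT1G58060, at 81.6% identity to AT1G58050, was at 1663 and 1531 in cmt3, against 1523 and 1489 in the labelled triple mutant. HEN1, the relative and neighbour of AT4G20920, was at 624 and 593 in cmt3, against 722 and 742. ACX3, the relative and neighbour of ACX6, was at 3351 and 3025 in cmt3, against 3473 and 3112. In none of these did the difference pass the test. The relatives that did pass were AT3G04960, CYC3B, SKS1 and PCME. AT3G04960, a DUF3444 gene closest to AT4G27980, rose from 72.1 and 49.9 to 599 and 618 (log2 difference 3.32 ± 0.23, limma adjusted p = 0.000687). CYC3B, the cyclin closest to CYCA2;1, rose from 158 and 173 to 576 and 541. SKS1 rose from 357 and 418 to 849 and 805, and PCME from 896 and 988 to 1491 and 1463. Without either labelled triple mutant library these calls ended.

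Reads shared between near-identical copies would make both values uncertain. The closest pair is RMF and AT5G36000, at 93.4% identity. AT5G36000 was at 41.1 and 77.7 in cmt3, against 104 and 137 in the labelled triple mutant (log2 difference 1.06, limma adjusted p = 0.175), above RMF in every library. The members AT1G48740 and AT5G43660, both 2-oxoglutarate oxygenases, are each other's closest gene at 83.7%. AT1G48740 was at 12.2 and 15.4 in cmt3, against 181 and 159 in the labelled triple mutant, and AT5G43660 was at 19.9 and 24 in cmt3, against 185 and 162. Among pairs at 80% identity or less, where reads are less likely to be shared, 2 of 17 tested relatives were called higher (11.8%).

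**Figure D3:**
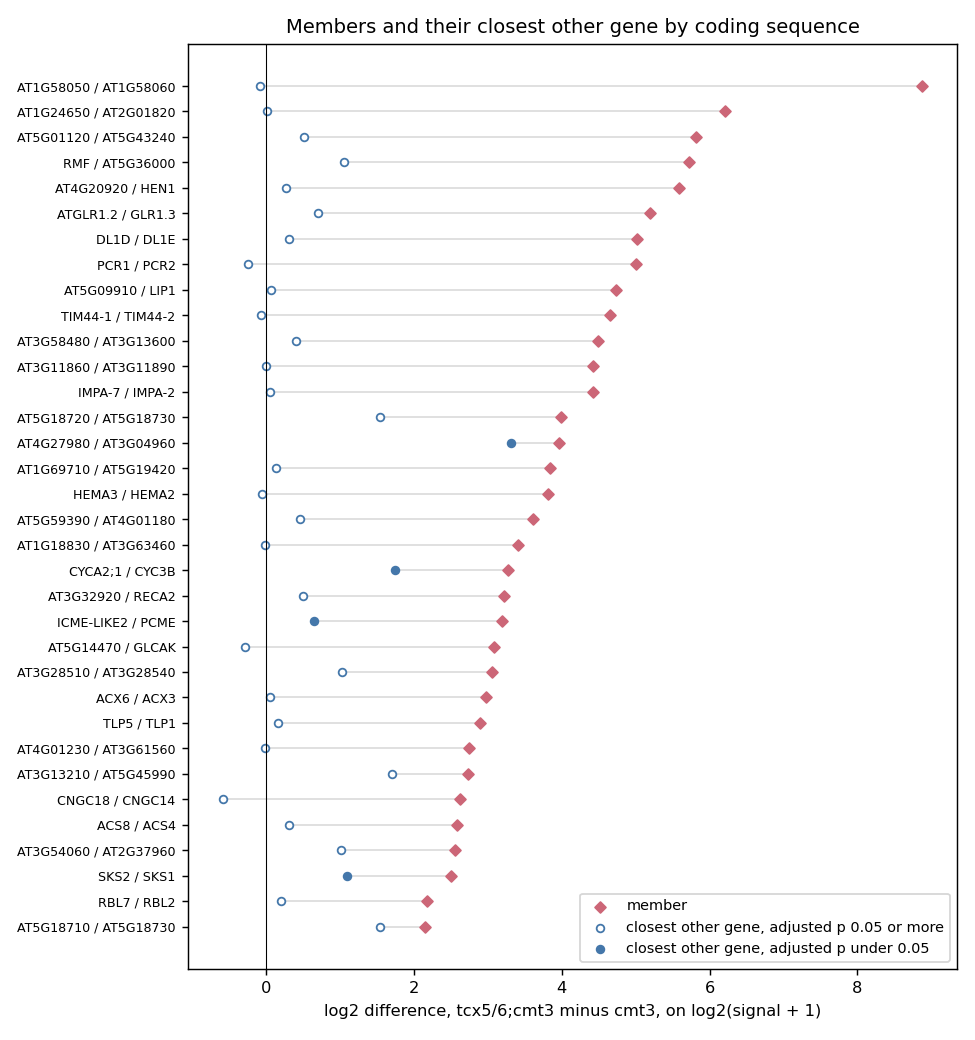
Log2 difference (labelled triple mutant minus cmt3, on log2(signal + 1)) for members (red diamonds) and their closest tested gene by coding sequence (blue circles, filled where the limma adjusted p is under 0.05), 1 line per pair. Open circles run from -0.58 for CNGC14 to 1.71 for AT5G45990, and the filled ones are AT3G04960, CYC3B, PCME and SKS1.

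The sequence around the members' starts, which the selection did not use, was searched for words that E2F, MYB3R and CXC proteins are known to read. The window ran from 250 bases before to 50 bases after the annotated gene start (RefSeq, TAIR10.1) and both strands were read. The E2F words were TTTCCCGC, TTCCCGCC and TTTGGCGC, where the first overlaps the second by 7 bases when both occur as TTTCCCGCC. The core of the element that MYB3R factors read was searched as AACGG. For the cell cycle homology region, which CXC proteins read, the word was TTTGAA. As a word with no tie to the complex, the TATA box was searched as TATAAA.

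These 8 start regions are shown because they carry an E2F word before the gene start, in capitals. Each is read 5′ to 3′ on the gene's own strand, given after its position, and IMPA-7 carries the word in reverse complement.
KOM, chr1:29284499-29284557, minus strand: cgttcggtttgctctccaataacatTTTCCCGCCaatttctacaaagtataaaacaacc
AT4G33870, chr4:16236563-16236620, minus strand: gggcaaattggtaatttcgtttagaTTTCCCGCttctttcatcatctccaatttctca
AT5G01120, chr5:44756-44809, plus strand: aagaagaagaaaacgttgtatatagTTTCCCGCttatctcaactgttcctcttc
AT4G14805, chr4:8503279-8503337, minus strand: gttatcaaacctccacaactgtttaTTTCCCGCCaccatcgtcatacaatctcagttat
AT4G19570, chr4:10665094-10665144, plus strand: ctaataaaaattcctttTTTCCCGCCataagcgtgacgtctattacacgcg
AT5G18710, chr5:6241017-6241075, plus strand: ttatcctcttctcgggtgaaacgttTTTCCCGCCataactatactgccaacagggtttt
AT5G18720, chr5:6243890-6243948, plus strand: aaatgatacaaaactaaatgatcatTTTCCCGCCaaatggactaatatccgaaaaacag
IMPA-7, chr3:1691926-1691983, minus strand: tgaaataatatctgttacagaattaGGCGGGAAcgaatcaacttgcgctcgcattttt

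The word TTTCCCGC was in the window of 9 of 81 members (11.1%), beside 4.65% of the 1375 genes called higher outside the members and 0.715% of the other 32465 genes. TTCCCGCC was in 6 members (7.41%), beside 4.07% and 0.662% of the same sets. TTTGGCGC was in 1 member, AT1G52530 (1.23%, beside 1.67% and 0.388%). The neighbours AT5G18710 and AT5G18720 both carry the joined word, so these counts hold related genes. CNGC18 and AT1G52530 carry their word past the start, and AT4G10950 carries it where a neighbouring gene overlaps the window, so these 3 are not printed. A total of 11 members (13.6%) had at least 1 of the E2F words, which leaves most members with none of them in this window.

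The orientation of TTTCCCGC was one-sided. It lay on the gene's own strand in 9 of 9 members, beside 40 of 64 other genes called higher (62.5%) and 113 of 232 other genes of the table (48.7%). Of 183 tested genes outside the members that hold the word, 64 were called higher. These are shares of genes, given without a test.

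The shorter words were common in all sets. AACGG was in 37% of members, 35.2% of other genes called higher and 24.5% of all others. TTTGAA was in 53.1%, 53.7% and 43.4%, and TATAAA in 55.6%, 49.3% and 50.6%. Windows with none of the words other than TATAAA made up 24.7% of the members and 42.1% of all others. The median GC share of the window was 35% in members, 32.7% in other genes called higher and 32.3% in all others, and its part in the word counts was not tested.

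**Figure D4:**
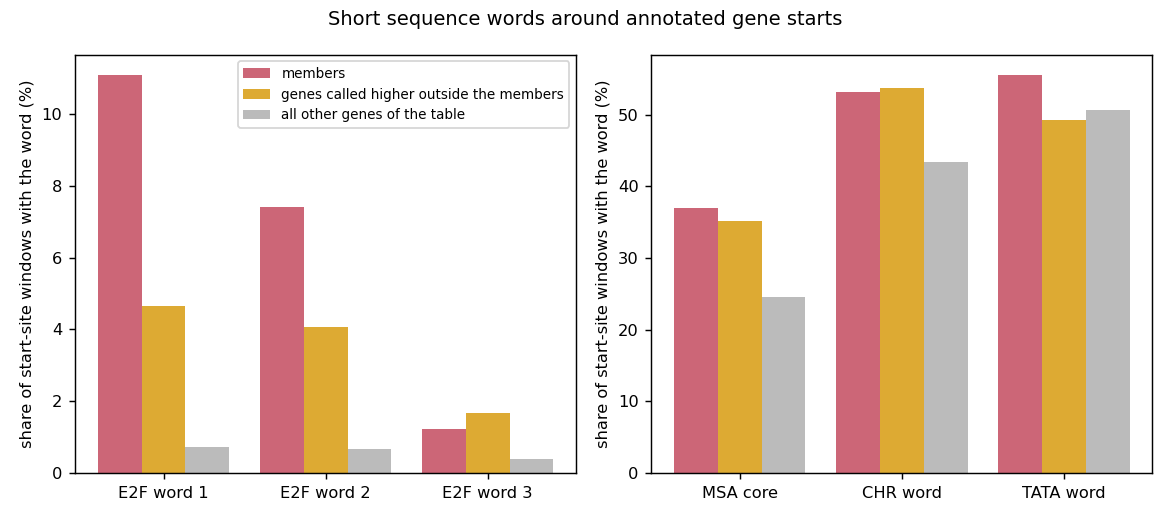
Share of start-site windows (y axes, %, from 0) that hold each word, in members, in genes called higher outside the members and in all other genes of the table. E2F words 1 to 3 are TTTCCCGC, TTCCCGCC and TTTGGCGC, the next panel shows the MYB3R, cell cycle homology and TATA words, and the first E2F word stands at 11.1%, 4.65% and 0.715%.

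Genes of the surrounding pathway, from lists chosen with earlier results known, were mostly higher in the labelled triple mutant. In these lists a gene is counted as rising or falling where the limma adjusted p is under 0.05. Over all tested genes 6.15% were called higher and 2.32% lower, with a median log2 difference of -0.02. Of 21 tested DREAM and E2F genes, 15 rose and 0 fell, with a median log2 difference of 0.97. ALY1, a subunit of the complex, rose from 285 and 263 to 1576 and 1589.7, and E2FC, an E2F factor known as a repressor, from 485 and 550.3 to 1768 and 1723. Of 19 S phase genes 18 rose (median 0.89), and of 19 genes of G2 and M phase 18 rose (median 1.19). None of these lists holds a member. ORC1A, of the origin recognition complex, was the lowest of them in cmt3, at 14.7 and 29.5, and reached 129 and 98.6. These calls ended without either labelled triple mutant library, and the part of the cell cycle genes in the members' levels was not tested.

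The meiosis list is the one that holds members. Of 33 tested genes 27 rose and 0 fell, with a median log2 difference of 1.84, beside 6.15% of all tested genes called higher. Setting aside SHOC1, DFO, MMD1 and SPO11-2, 23 of 29 rose, with a median of 1.78. DMC1, the recombinase of meiosis, rose from 461 and 409.9 to 4117 and 3889.7 (log2 difference 3.20 ± 0.09, limma adjusted p = 0.000277), and ASY1, of the chromosome axis, from 96.4 and 131 to 1564 and 1648. These calls too ended without either labelled triple mutant library. The genes that did not pass include SYN1, the meiotic cohesin subunit, at 18.6 and 17 in cmt3, against 50.8 and 53.9 (limma adjusted p = 0.0652), and SWI1, at 7.61 and 9.29 in cmt3, against 25.1 and 40.4 (limma adjusted p = 0.0883).

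Markers of the organs where meiosis takes place were read beside these genes. In bulk seedlings, more cells that use a gene and more RNA per cell cannot be told apart. Of 11 anther and tapetum markers 5 were tested and limma called 0, with 0 at an unadjusted p under 0.05. The list's summed signal was 259 and 322 in cmt3, against 231 and 251 in the labelled triple mutant. In this list 3 were at 0 in every library, and AMS, a tapetum regulator, was at 0.406 and 8.53 in cmt3, against 1.4 and 5.06. Of 16 pollen and sperm markers 6 were tested and limma called 0, with sums of 368 and 384 in cmt3, against 412 and 373. The 1 at an unadjusted p under 0.05 was HAP2, at 8.73 and 4.92 in cmt3, against 16.3 and 21.5. The sperm regulator DUO1 was at 0 in all libraries. Limma called 0 of 9 tested egg, central cell and endosperm markers and 0 of 10 embryo and seed markers. In each list 1 was at an unadjusted p under 0.05, EC1.4 (lower) in the first and SESA4 (higher) in the second. The sums of the egg, central cell and endosperm list were 107 and 127 in cmt3, against 136 and 108. Those of the embryo and seed list were 141 and 147, against 71.6 and 132. Median log2 differences of these lists, in order, were -0.24, -0.07, 0.46 and -0.24, beside -0.02 over all tested genes.

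Of 11 tested floral organ markers, 1 rose: SEP3, a MADS-box factor of flowers, from 283 and 259 to 960.4 and 668 (log2 difference 1.56 ± 0.19, limma adjusted p = 0.00471). The summed signal of the list was 370.1 and 336 in cmt3, against 1082 and 758 in the labelled triple mutant, most of it SEP3. At an unadjusted p under 0.05 limma had 1 higher, SEP3, and 1 lower, SEP1, at 14.4 and 6.69 in cmt3, against 2.46 and 1.65. The median log2 difference of the list was 0.43, beside -0.02 over all tested genes, so SEP3 was not alone in being higher. AP1 was at 3.15 and 1.98 in cmt3, against 4.42 and 7.7, and CRC was at 0 in all libraries. The part of SEP3 in the members' levels was not tested. Limma called 0 of 16 root markers and 0 of 4 green seedling markers, with 0 at an unadjusted p under 0.05. The green seedling markers summed to 1004294 and 806622 in cmt3, against 859647 and 890763. The root markers summed to 11571 and 17866 in cmt3, against 15344 and 14576. In both lists the cmt3 replicates held the lowest and the highest sum, and this spread limits what the absence of calls shows.

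**Figure D5:**
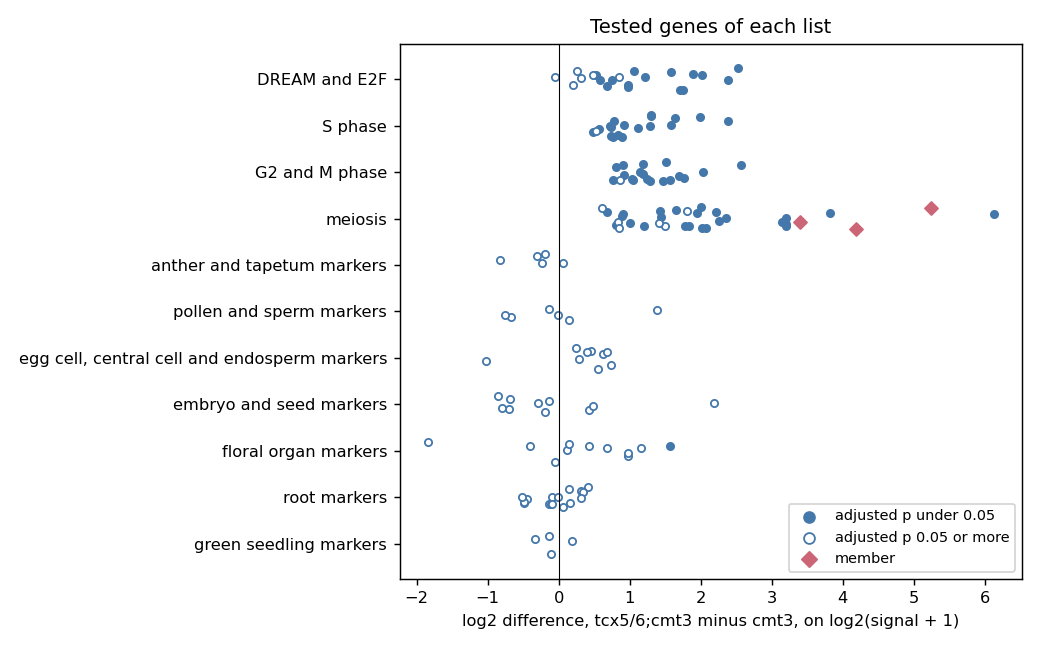
Log2 difference (labelled triple mutant minus cmt3, on log2(signal + 1)) of each tested gene of 11 lists, filled where the limma adjusted p is under 0.05, with the members in the meiosis list as red diamonds. Cell cycle and meiosis genes lie right of 0 except DPB at -0.05, organ markers scatter around it, and SEP3 is the filled floral organ marker.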

How the data were processed

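Seedling mRNA was sequenced in 4 libraries, 2 per genotype, grouped by title. Per the submitters' processing notes the authors used HISAT2, TAIR10 and edgeR, with no versions. As deposited, each library has 1 column of normalized signal over genes. The sources used here do not give the scaling step, gene counter or strand setting. Reads were not recovered, and depth is unknown, so no counting interval is given. Values under 1e-10 were set to 0. Another 4 columns with values of single samples fit none of the samples given and were not used here.

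All 32548 identifiers matched the RefSeq annotation of TAIR10.1, the source of symbols, coordinates (1-based) and sequences. Genes at 1 or more in 2 or more libraries (23666) were fitted as log2(value + 1) with limma 3.58.1 in R 4.3.3, with a mean-variance trend and Benjamini-Hochberg adjustment (threshold 0.05). Log2 differences on this scale understate changes of low genes. The count test first planned does not suit these values. With 2 libraries against 2, the smallest two-sided p of an exact permutation test is 0.333. On simulated data of 23666 genes, 50 genes were changed at each size. The fit recovered 70% at 1.5-fold, 90% at 2-fold, 94% at 4-fold and 100% at 8-fold, with 9 of 186 calls among unchanged genes. The simulated noise was normal, with a spread set by the gene's mean alone. Real genes of the same mean can differ in spread, so recovery and wrong calls in the real data may be worse. The changed genes were drawn only from genes above a low limit in cmt3. Members had cmt3 means down to 0, with a median of 7.59, so the recovery does not cover the lower members.

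The members and lists were chosen with earlier results of these data known, and the role groups after the values were seen. Values in every library were to be given for the 15 members highest in the labelled triple mutant, the 10 with the largest log2 difference, those at 0 in both cmt3 libraries, those with an own symbol and those next to another member, for the nearest 2 genes at each limit, for the mutated genes and for up to 4 called genes of a list. Other genes were named after their values were seen. For 1 member that this rule names, values are not reported here. Closest genes came from BLASTN 2.17.0 on coding sequences in place of a planned protein search. Words were counted with Python 3.11.15. Alternatives were quantile normalization, other filters and pseudocounts, no trend, a replicate block, each library left out, a threshold of 0.01, other limits for the selection and other windows.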

Additional observations from a re-analysis of the deposited data

How the results depend on the processing

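The selection fixes the sign of the members' log2 difference, so its sign under the alternatives shows nothing about stability. Without a filter on low values limma called 215 genes higher and 45 lower, 2 members, 2 neighbours, 0 closest genes, 3 DREAM and E2F genes, 6 of S phase, 7 of G2 and M phase and 4 of meiosis. It had 4874 genes and 79 members at an unadjusted p under 0.05 there. Limma without the trend called 586 higher and 135 lower, with 7, 11 and 17 genes of S phase, G2 and M phase and meiosis. At an adjusted p under 0.01 it called 780 higher and 173 lower, and 3 neighbours. With pairs of 80% identity or less, 2 closest genes were called. Leaving out 1 library gave 0 to 1281 genes higher, 0 to 530 lower, 0 to 78 members, 0 to 7 neighbours, 0 to 5 closest genes, 0 to 13 DREAM and E2F genes, 0 to 16 of S phase, 0 to 18 of G2 and M phase and 0 to 25 of meiosis. The 0 came from either labelled triple mutant library left out, where 80 and 81 members had an unadjusted p under 0.05. The lone library is then assumed to vary like the other genotype. The cause of these changes was not tested. The selection held 53 genes at a labelled triple mutant limit of 80, 49 at a ratio of 8, 125 at a ratio of 2, and 99 to 123 with 1 library left out. In the 1000 bases before the start, TTTGAA was in 87.7% of members, AACGG in 70.4% and TATAAA in 82.7%. The shares over all other genes there were 84.2%, 56% and 82.8%. The replicate numbers share only a number (correlation of same-numbered deviations 0.001), and with a replicate block limma called 1314 genes higher and 473 lower. Unknown depth limits what can be said of values near 0.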

Other observations

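Product families that hold members were counted over the whole table, with words chosen after the members were known. Of 8 tested genes annotated as importin alpha, 3 were called higher, among them IMPA-7 and the set-aside IMPA-5, and 1 of the 6 others. The share over all tested genes was 6.15%. Of 95 tested 2-oxoglutarate oxygenase genes 4 were called higher, 2 of them members, which leaves 2 of 93 others. Of 35 tested B3-type genes 3 were called higher, 2 of them members, which leaves 1 of 33 others. Of 19 tested rhomboid genes 3 were called higher and 1 lower. KOM and RBL7 are among the 3, which leaves 1 of 17 others. These counts are given without a test.

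Loci known to be silenced by DNA methylation were read as well. QQS fell from 829 and 714 in cmt3 to 31 and 48.3 in the labelled triple mutant (log2 difference -4.28, limma adjusted p = 0.000551). SDC was at 9.52 and 5.43 in cmt3 and at 0 in both other libraries (limma adjusted p = 0.0732). FWA was at 0 in all 4 libraries. Next to members, XLG2, beside AT4G34400, fell by 0.64 on the log2 scale (limma adjusted p = 0.00527), and AT5G02230, the neighbour of AT5G02220, by 0.49 (limma adjusted p = 0.0264).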
